A study of Caenorhabditis elegans with 46 samples.

Results

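Fed worms of the jun-1 mutant were compared with fed worms of the wild-type strain N2 in Caenorhabditis elegans. The comparison used 6 arrays of 46 in all, chosen by their labels alone: fed jun-1, replicates 1 to 3, and fed N2 with no hours given, replicates 1 to 3. Arrays with the same number were taken as a pair. Both groups were adults of day 4, each array held labelled RNA from 100 ng of total RNA of whole worms, and neither group carried a transgene or a second mutation that the labels name. The labels give the genotype of the mutant as jun-1 and do not describe the lesion or say whether the line had been crossed back to N2. The rest of the mutant set, 24 arrays of fed and fasted jun-1, kgb-1, daf-16 and N2 worms, entered the fit, and fasted jun-1 against fasted N2, and fed jun-1 against fed kgb-1 and fed daf-16, are used below to set the fed difference beside other arrays. The series is about stress kinase signalling and lifespan under intermittent fasting, and the fed comparison asks what the jun-1 mutation changes without a fast.

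JUN-1 is the worm's JUN protein. JUN and FOS proteins bind each other through leucine zippers and form AP-1, a transcription factor that kinases of the JNK family activate in animals from worms to mammals. The worm's FOS protein, FOS-1, is best known for letting the anchor cell cross the basement membrane in larvae. In adult worms the intestine both digests bacteria and answers them, with secreted lectins, lysozymes and small antimicrobial proteins, and the epidermis makes a separate set of antimicrobial peptides.

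The values are linear array intensities, 1 per probe set and array, and have no unit. The lowest value in the files is 16, so a probe set near 16 is at the floor and a difference against it is understated. Whether a constant was added to all values before deposit is not given in the sources used here, and if one was, differences of all dim probe sets are understated. Array medians lay between 60.2 and 70.3 in fed jun-1 and between 74.4 and 77.6 in fed N2, and arrays of the mutant set were brought to 1 distribution before the fit. All log2 differences are jun-1 minus N2 on that scale with the replicate number as a block, given with their standard error, and adjusted p-values come from limma with Benjamini-Hochberg adjustment over 22548 probe sets. A probe set is called higher or lower at an adjusted p under 0.05. Among 99 called probe sets whose genes are candidates for naming here, 68 had a group mean under 100, where the size of a difference depends on the offset used. All 68 kept their sign with offsets of 16 and 50, and 62 kept their call with both.

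The jun-1 gene itself was read first, because it checks the labels. Its first probe set had intensities of 23.5, 16 and 17.9 in fed jun-1, against 605, 803 and 706 in fed N2. The mutant arrays lay at or just above the floor, and the groups did not overlap. The difference was -5.14 ± 0.22 (adjusted p = 4.43e-12), a 35.3-fold lower level that is limited by the floor, and with offsets added before the log it shrank to as little as -3.44. The fed kgb-1 arrays, at 529, 560 and 485, and the fed daf-16 arrays, at 552, 968 and 943, lay near N2. The second jun-1 probe set read 151, 190 and 103.99 in fed jun-1, against 154, 232 and 228 in fed N2. There the groups overlapped and the difference of -0.32 ± 0.21 was not called (adjusted p = 0.534). The files used here do not place either probe set within the gene, so where the transcript is lost is not known from them.

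The partner gene fos-1 was called higher on 1 of its 2 probe sets. On the first it read 292, 213 and 231 in fed jun-1, against 143, 148 and 168 in fed N2, a difference of 0.84 ± 0.21 (adjusted p = 0.0333). On the second the difference was 0.88 ± 0.26, which was not called (adjusted p = 0.0819). The call on the first was lost in each of the 6 fits that left out 1 array, where the adjusted p ran from 0.053 to 0.191. Of 26 measured AP-1 and other bZIP factors, each read on its brightest probe set, jun-1 was the 1 called lower. In that reading ces-2, a bZIP protein known from programmed cell death of neurons, was the 1 called higher. There fos-1 stood on its second probe set, which was not called. For ces-2 the arrays read 68.5, 94.2 and 77.2 in fed jun-1, against 44.8, 40.4 and 31.3 in fed N2 (1.24 ± 0.21, adjusted p = 0.000915). None of 23 measured genes of the JNK and p38 kinase pathway was called by limma. At an unadjusted p under 0.05, 1 of them was higher and 1 lower.

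The gene next to jun-1 on chromosome II behaved unlike its surroundings. C16D2.1, the next protein-coding gene after jun-1 in the RefSeq gene order, read 545, 542 and 698 in fed jun-1, against 51.8, 70 and 61.1 in fed N2. The groups lay far apart, and the difference was 3.38 ± 0.21 (adjusted p = 1.74e-09), 10.4-fold. Fed kgb-1, at 51.6, 78.3 and 67.4, and fed daf-16, at 61.5, 75.8 and 54.4, were like N2, and fasted jun-1, at 612, 396 and 756, was as high as fed jun-1 beside 47.6, 60.1 and 63.6 in fasted N2. Of the 20 protein-coding genes nearest to jun-1, 10 on each side, 17 were measured and C16D2.1 was the 1 called. T24H10.4, its neighbour on the other side, differed by 0.12. What the gene does is not given in the tables used here, and whether its level follows from the change in the adjacent jun-1 locus was not tested.

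**Figure D1:**
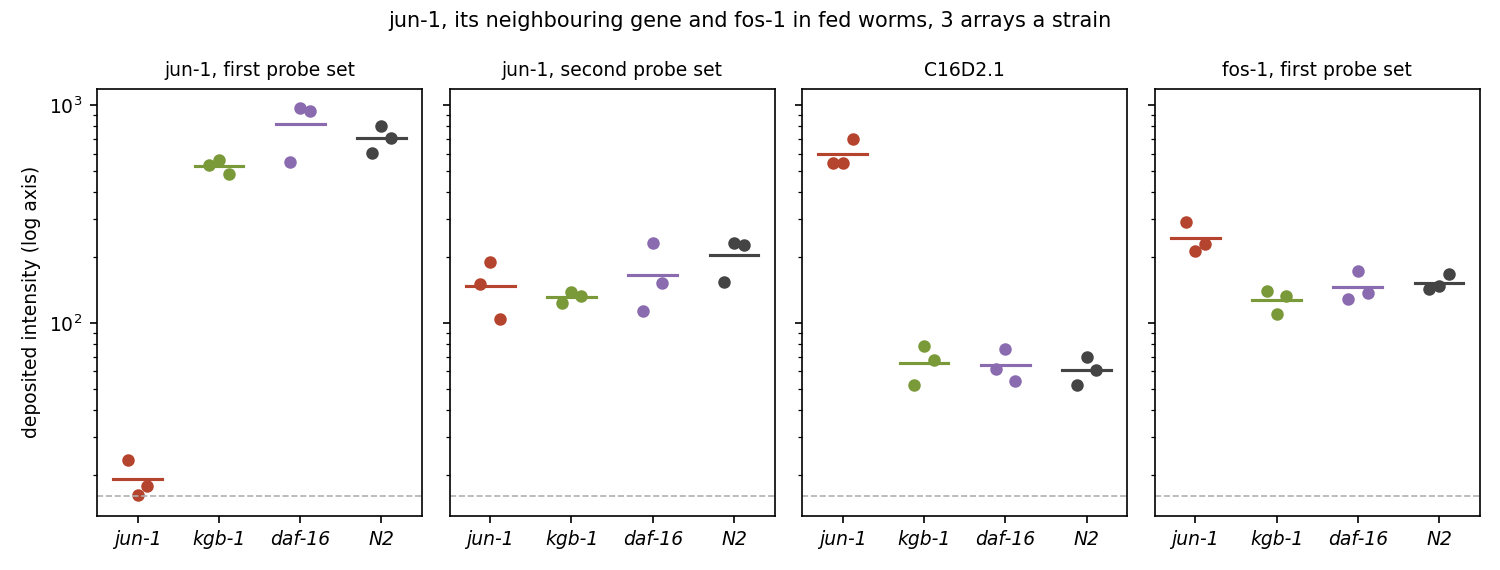
Deposited intensity (log axis) of both jun-1 probe sets, C16D2.1 and fos-1 in fed jun-1, kgb-1, daf-16 and N2 worms. Points are the 3 arrays of a strain, bars their means, and the dashed line the floor of 16. Fed jun-1 stands at the floor on the first jun-1 probe set and between 542 and 698 for C16D2.1, and overlaps fed N2 on the second jun-1 probe set.

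Over the whole array, 638 of 22548 probe sets (2.83%) were called, 180 higher in fed jun-1 (0.798%) and 458 lower (2.03%). Of the 638, 588 have 1 gene symbol and stand for 536 genes, 155 higher and 381 lower, and no gene had probe sets called in both directions. The median difference was 0.99 among probe sets called higher and -1.08 among those called lower, and 88 and 267 of them differed at least 2-fold. In 636 of the 638 the 3 pairs had 1 sign. How many are called depends on single arrays: the count was 375 without jun-1 replicate 2, 370 without N2 replicate 2 and 319 without N2 replicate 3, and without the replicate block it was 290. The split also moves with the scaling. On the values as deposited, where the median probe set differed by -0.09, 105 were higher and 800 lower, a share of 11.6% higher beside 28.2% in the scaled fit.

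**Figure D2:**
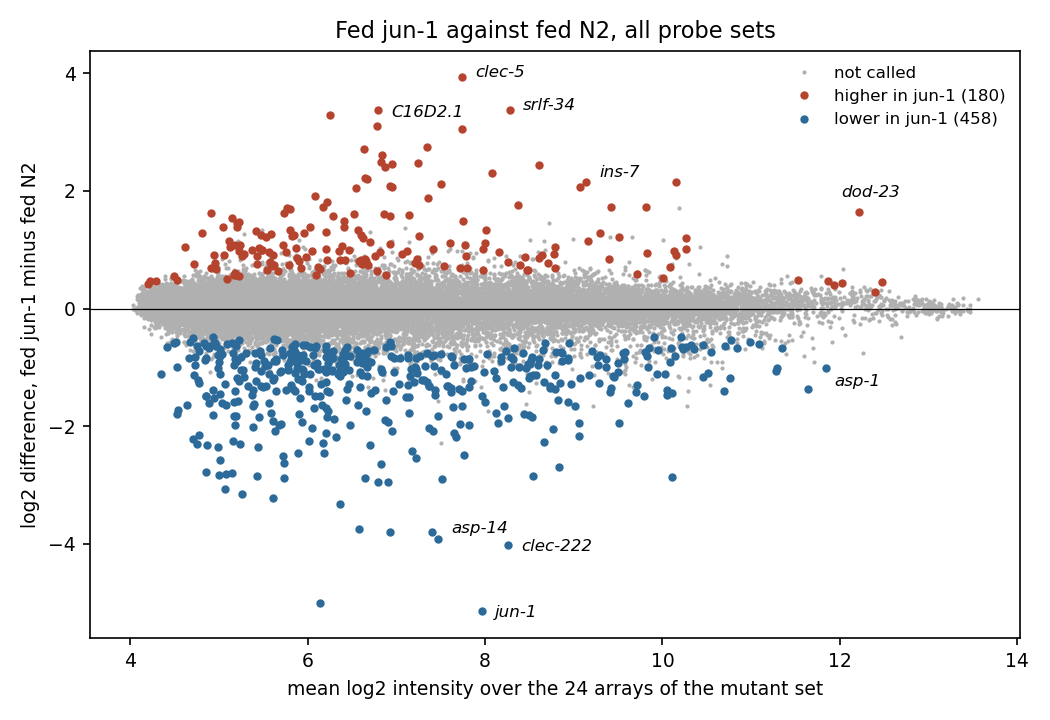
Log2 difference between fed jun-1 and fed N2 against the mean log2 intensity over 24 arrays, 1 point per probe set, with the 180 called higher and the 458 called lower in colour. The jun-1 probe set lies lowest, at -5.14, and clec-5 highest, at 3.93.

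The 15 genes that stood highest in fed jun-1 had differences between 2.30 and 3.93 (adjusted p of 0.012 or less). No array of fed jun-1 overlapped one of fed N2 in any of the 15. Those with a known family were C-type lectins, a lysozyme, an antimicrobial peptide, a thioredoxin and a putative methyltransferase. The highest was clec-5, a C-type lectin, a family of secreted sugar-binding proteins of which many answer infection. It read 2034, 1696 and 2453 in fed jun-1, against 287, 91.2 and 124 in fed N2 (3.93 ± 0.44, adjusted p = 1.08e-05). Its probe set is of a kind (name ending in s_at) that can match more than 1 transcript. Among the lowest genes below, asp-14, C05D12.3, C48B4.12, clec-208 and fipr-17 were read on probe sets of the same kind. Those of H39E23.3, among the highest, and clec-174, among the lowest, end in x_at and may also match other transcripts.

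Other lectins were high too. For clec-60, which other work has shown to be induced by Gram-positive bacteria, fed jun-1 read 234, 458 and 643, against 55.6, 38 and 46.0 in fed N2 (3.30 ± 0.33). For clec-86 the arrays read 581, 1076 and 1492 in fed jun-1, against 221, 140 and 197 in fed N2 (2.48 ± 0.28). In both genes the jun-1 arrays spread widely but stayed above every N2 array. The same was true of clec-82, at 339, 163 and 227 in fed jun-1, against 60.3, 55.5 and 31.8 in fed N2 (2.49 ± 0.44).

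Among the other high genes, ilys-3, an invertebrate-type lysozyme that cuts bacterial cell walls, read 476, 247 and 327 in fed jun-1, against 171, 51.6 and 59.1 in fed N2 (2.30 ± 0.48, adjusted p = 0.00761). The antimicrobial peptide gene cnc-6 read 337, 1012 and 633 in fed jun-1, against 100, 94.2 and 127 in fed N2 (2.61 ± 0.58, adjusted p = 0.012). These are the 2 of the 30 most changed genes whose call did not outlast every left-out array. The adjusted p reached 0.058 for ilys-3, whose call was lost without jun-1 replicate 3, N2 replicate 2 or N2 replicate 3. It reached 0.0929 for cnc-6, whose call was lost without jun-1 replicate 2, jun-1 replicate 3, N2 replicate 1 or N2 replicate 2.

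Thioredoxins reduce disulphide bonds in other proteins, and trx-3, an intestinal member, was among the most even of the high genes. It read 205, 201 and 207 in fed jun-1, against 43.2, 41.5 and 48.4 in fed N2 (2.40 ± 0.22, adjusted p = 8.62e-07). Both groups were tight and well apart. Fed kgb-1, at 240, 158 and 170, did not differ from fed jun-1 by the test, while fed daf-16, at 45.6, 54.7 and 46.3, was near N2. The remaining high genes were srlf-34 (3.38), R07C12.1 (3.10), metl-6 (3.06), K08D10.14 (2.75), H39E23.3 (2.70), dct-7 (2.45) and F19C7.2 (2.45), each given as its log2 difference. Of the 15, dct-7 alone had fed N2 arrays of the time course at 48 h within the range of fed jun-1. They read 403 and 358, beside 350, 1059 and 395 in fed jun-1.

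The 15 lowest genes had differences between -5.14 and -2.88 (adjusted p of 0.00224 or less), again with no overlap of arrays. After jun-1 the lowest was another C-type lectin, clec-222, with 32.4, 62.4 and 53.7 in fed jun-1, against 720, 975 and 807 in fed N2 (-4.02 ± 0.25, adjusted p = 1.74e-09). Its neighbour on chromosome V, clec-223, fell to the floor at 18.7, 20.7 and 18.2 in fed jun-1, against 238, 111 and 150 in fed N2 (-2.94 ± 0.23). clec-66 read 35, 29.3 and 29 in fed jun-1, against 338, 661 and 451 in fed N2 (-3.80 ± 0.38). In these 3 lectins every N2 array lay above every jun-1 array by severalfold.

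Genes of digestion and fat stood beside them. The aspartyl protease asp-14 read 42.5, 31.5 and 27.1 in fed jun-1, against 526, 517 and 550 in fed N2 (-3.91 ± 0.29, adjusted p = 3.21e-08). The lipase gene lipl-1, whose product belongs to the lysosomal acid lipase family, read 74.2, 38.7 and 65.4 in fed jun-1, against 659, 365 and 451 in fed N2 (-2.90 ± 0.53, adjusted p = 0.00224). For pud-3, named for proteins that accumulate in daf-2 mutants, the arrays read 88.5, 40.9 and 37.0 in fed jun-1, against 533, 548 and 247 in fed N2 (-2.89 ± 0.49). The fed N2 level of asp-14 and pud-3 itself differed between the 2 sets of the series, since the fed N2 arrays of the time course at 48 h read 3198 and 2229 for asp-14 and 3227 and 2544 for pud-3. Genes without a known function filled much of the rest, with F01D5.2 at -3.75, C05D12.3 at -3.32, F09C6.10 at -3.23, C48B4.12 at -3.16 and K08D8.5 at -2.94.

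**Figure D3:**
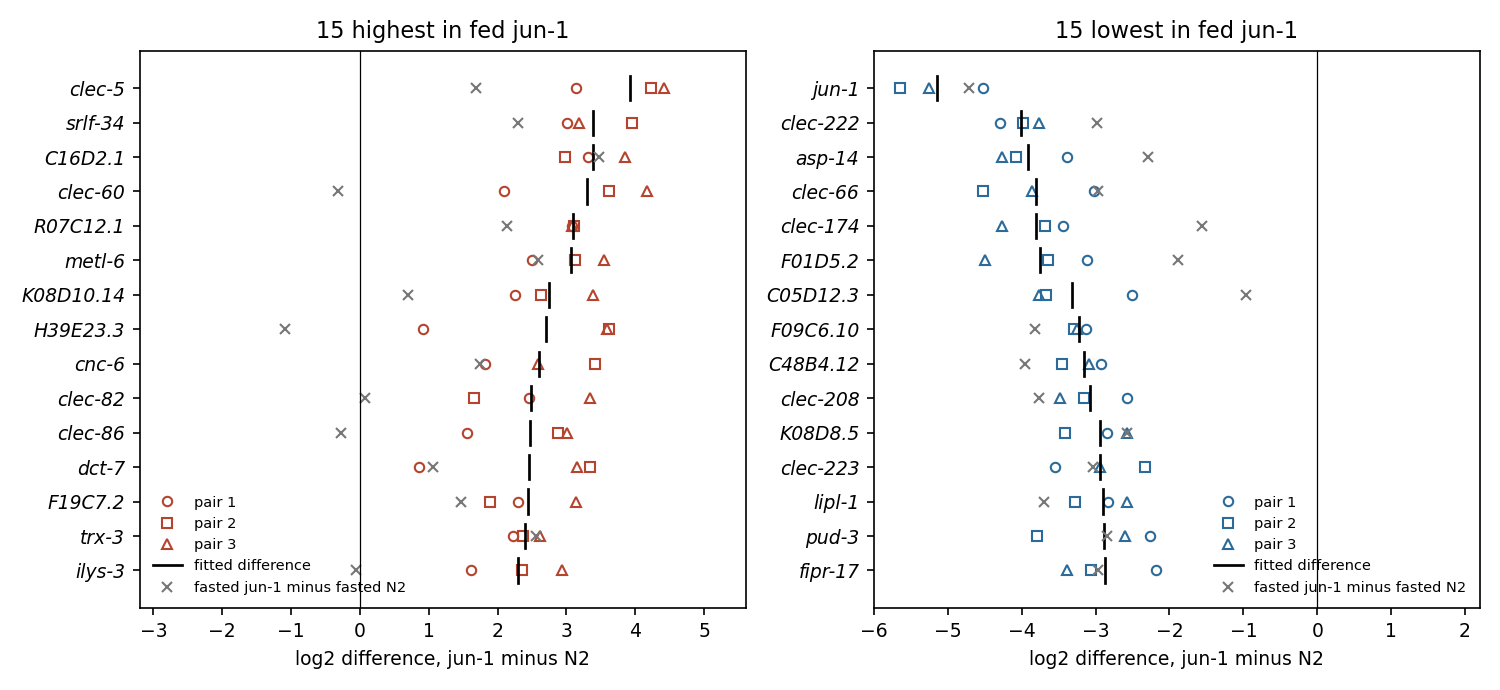
Log2 difference between jun-1 and N2 for the 15 highest and the 15 lowest genes of the fed comparison. Open symbols are the 3 fed pairs, the black bar is the fitted fed difference, and the cross is the difference of the fasted arrays. Genes were chosen by the fed difference, though the fasted arrays share the fit behind the calls. Only genes with the same sign in all 3 pairs were eligible, so every pair lies on the same side of 0 as its bar. Crosses for clec-60, clec-86, clec-82, H39E23.3 and ilys-3 lie near or past 0.

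Gene families were read with 1 probe set per gene, the brightest, which gave 17118 genes, of which 2.90% were called (0.835% higher and 2.07% lower). Their median difference was 0.03. C-type lectins were called far more often than that. Of 220 measured, 8 were higher and 27 lower (15.9% called), while the family's median was -0.04. At an unadjusted p under 0.05, 21 were higher and 52 lower. Lectins with the lowest adjusted p were clec-60, clec-5 and clec-86 on the high side and clec-222, clec-223 and clec-66 on the low side. Without the replicate block 6 were higher and 15 lower.

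Other infection response genes, such as thaumatin-like and fungus-induced proteins and genes downstream of daf-16, also changed in both directions, with 6 of 53 higher and 12 lower (34% called). dod-23, found in a screen for genes that act under daf-16, was the brightest of them. It read 11154, 10770 and 11330 in fed jun-1, against 4036, 4294 and 3398 in fed N2 (1.65 ± 0.21, adjusted p = 3.73e-05). Fed daf-16, at 7077, 9062 and 8621, was also higher than fed N2 by limma (1.15, adjusted p = 0.00461) and did not differ from fed jun-1 by the test. The thaumatin-like genes thn-1 and thn-3 were higher by 2.08 and 0.92, while the fungus-induced related genes fipr-17 and fipr-16 were lower by -2.88 and -2.83 and F55G11.2 by -2.08. Both fipr genes were also low in fed kgb-1 and fed daf-16: against fed N2, fipr-17 differed by -3.03 and -2.79 there and fipr-16 by -3.05 and -1.89.

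Of 34 lysozyme and saposin-like genes 3 were higher and none lower: ilys-3, its neighbour ilys-2 and spp-12. At an unadjusted p under 0.05, 5 were higher and 6 lower, and the median was -0.07. The list's summed intensity was 35310, 41155 and 41485 in fed jun-1, against 49252, 48503 and 50040 in fed N2, so the sum was lower in every pair. None of the 3 kept its call without the replicate block, and spp-12 overlapped between the groups. Of 9 measured neuropeptide-like genes that make antimicrobial peptides of the epidermis, 3 were higher and the median was 0.66. nlp-31 read 1006, 1853 and 2103 in fed jun-1, against 668, 578 and 727 in fed N2 (1.29 ± 0.27, adjusted p = 0.00757). nlp-33 differed by 1.73 ± 0.39 and nlp-25 by 1.91 ± 0.44, and nlp-29, the best studied, by 0.89 ± 0.25, which was not called (adjusted p = 0.0654). All 3 calls were lost without jun-1 replicate 3, where the list's count was 0, and the probe sets of nlp-27 to nlp-31 may share targets. The fed N2 arrays of the time course at 48 h, also adults of day 4, read 1339 and 1187 for nlp-31, 214 and 277 for nlp-33 and 1085 and 859 for nlp-29. Those values lie within the range of fed jun-1. For nlp-25 they read 86 and 159, beside 108, 398 and 250 in fed jun-1.

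UDP-glucuronosyl transferases, which attach sugar to toxins so that they can be excreted, had 10 of 64 members lower and 1 higher (17.2% called), with a median of -0.26. ugt-44 read 394, 506 and 345 in fed jun-1, against 1275, 1316 and 1511 in fed N2 (-1.65 ± 0.20, adjusted p = 1.78e-05). Its neighbour ugt-43 differed by -1.98 ± 0.27 and ugt-5 by -1.48 ± 0.22. Cytochrome P450 genes gave 3 of 73 lower (4.11%) and glutathione S-transferases 2 of 45 lower (4.44%), both near the 2.90% of all genes. Neither list had a gene called higher. At an unadjusted p under 0.05 they had 4 and 0 genes higher and 14 and 8 lower. On the values as deposited 7 and 5 were called lower, and with 1 array left out each list fell to as few as 0 calls.

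Of 28 lipases 5 were lower and 1 higher (21.4% called). lipl-2 stood beside lipl-1 on the low side, at 41.8, 23.5 and 20.7 in fed jun-1, against 180, 81.3 and 104.14 in fed N2 (-1.91 ± 0.36). lips-11 was the 1 higher, at 528, 936 and 1475 in fed jun-1, against 225.05, 217 and 233 in fed N2 (2.05 ± 0.35, adjusted p = 0.00135). Of 17 fatty acid and retinol binding genes 3 were lower, lbp-8, a lysosomal lipid carrier, by -1.38 ± 0.23, lbp-7 by -1.51 ± 0.31 and lbp-3 by -1.07 ± 0.21. Of 26 genes of fatty acid synthesis and desaturation (3.85% called) fat-5, a palmitoyl-CoA desaturase, was the 1 called. It read 247, 408 and 493 in fed jun-1, against 961, 910 and 964 in fed N2 (-1.27 ± 0.27, adjusted p = 0.00792), a call lost without jun-1 replicate 2 or N2 replicate 1 (adjusted p up to 0.0737). In fatty acid oxidation 1 of 40 was called, cpt-4, a carnitine palmitoyltransferase gene (1.38 ± 0.34).

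Insulin-like peptides signal through the receptor DAF-2 to the FOXO protein DAF-16. Of 24 measured, 3 were higher and none lower, and an unadjusted p under 0.05 was reached by 4 on each side. The split depends on the scaling, since on the values as deposited 2 were higher and 2 lower, and without the replicate block 1 was higher. ins-7, an agonist of DAF-2 made in the intestine and neurons, read 2330, 3496 and 2172 in fed jun-1, against 734, 604 and 520 in fed N2 (2.14 ± 0.34, adjusted p = 0.000572), 4.42-fold. The groups did not overlap and the call held with each array left out. ins-17 was at 218, 370 and 561 in fed jun-1, against 136, 169 and 159 in fed N2 (1.33 ± 0.24, adjusted p = 0.00199; 0.224 without the block), and ins-2 differed by 0.79 ± 0.21, past the threshold only just (adjusted p = 0.0491) and lost in 5 of the 6 left-out fits. No gene of the path from the insulin receptor to DAF-16 was called among 21 measured, with 1 higher at an unadjusted p under 0.05.

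In SCF ubiquitin ligases a SKP1-like adaptor joins a cullin to an F-box protein. Of 29 SKP1-related and cullin genes 17.2% were called, beside 2.90% of all genes. skr-7, skr-8, skr-9 and skr-13, SKP1-related genes, were the 4 called lower, and skr-2 the 1 called higher. Without the replicate block 1 gene was called, a lower one, and without N2 replicate 3 the list had 2 calls. skr-7 read 523, 501 and 322 in fed jun-1, against 992, 680 and 691 in fed N2 (-0.74 ± 0.14, adjusted p = 0.00244). skr-8 and skr-9 differed by -0.75 and -0.68, and as close copies they may share signal. F-box genes gave 2 higher and 4 lower of 310 (1.94%), and MATH and BTB genes 2 higher and 1 lower of 103 (2.91%). Both lay near or below the share over all genes. On the values as deposited these counts were 1 and 13 for F-box genes and 0 and 5 for MATH and BTB genes. Of the most changed members, fbxb-41 read 20.9, 17.5 and 16.8 in fed jun-1, against 103, 70.3 and 51.3 in fed N2 (-1.84 ± 0.19), and btb-11 read 30.1, 32.5 and 24.7 in fed jun-1, against 172, 101 and 71.4 in fed N2 (-1.73 ± 0.20).

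The remaining lists had few calls each, and their shares lay on both sides of the 2.90% called over all genes. Hedgehog-related and patched-related genes gave 2 higher and 4 lower of 81 (7.41%), led by ptr-22 (1.27 ± 0.17) and wrt-3 (-1.04 ± 0.17). Oxidative stress enzymes gave 2 higher, trx-3 and sod-4, and 1 lower, gpx-7, of 27 (11.1%). Of 26 histone genes (3.85% called) the linker histone his-24 was higher (0.95 ± 0.19). Of 15 matrix proteases and inhibitors (6.67% called), mig-17, an ADAM protease of the gonad's migration path, was lower (-1.39 ± 0.27). Of 10 anchor cell invasion genes (10% called) the netrin unc-6 was lower (-0.71 ± 0.17). The unc-6 call was lost in all 6 left-out fits (adjusted p from 0.05 to 0.117). One gene was called in each of 5 further lists, so in a short list 1 call decides the share. These were inx-12 lower of 15 ovulation and IP3 genes (6.67%), cdr-4 higher of 14 heavy metal genes (7.14%) and hsp-43 lower of 10 small heat shock proteins (10%). The longer lists lay below the share over all genes, with nhr-106 lower of 258 nuclear hormone receptors (0.388%) and dpy-14 higher of 146 cuticle collagens (0.685%), whose median was -0.28. With 1 array left out, the call was lost in 6 of 6 fits for hsp-43, 5 for nhr-106, 4 for inx-12, 3 for cdr-4 and 1 for dpy-14, and none of these 5 was called without the replicate block. Of 1276 chemoreceptor genes 3 were higher and 2 lower (0.392%).

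Several broad processes gave no call by limma. They were 62 cytosolic ribosomal proteins, 42 respiratory chain genes, 33 proteasome subunits, 27 autophagy genes, 19 AMPK and TOR sensors, 12 large chaperones and 6 yolk protein genes. At an unadjusted p under 0.05 they had 2, 2, 1, 1, 1, 1 and 0 genes higher and 0, 1, 0, 0, 0, 0 and 1 lower, in that order. vit-2, a yolk protein of the intestine, read 6369, 6796 and 6180 in fed jun-1, against 6843, 7011 and 5915 in fed N2, a difference of 0.04 ± 0.10. These lists take the brightest probe set of each gene. A dimmer probe set of vit-4 was lower (-1.32 ± 0.33, adjusted p = 0.0273) while the 2 bright ones differed by -0.05 and -0.04, and a second probe set of hsp-90 was called at 0.27 ± 0.07 (adjusted p = 0.0401) with overlapping arrays.

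**Figure D4:**
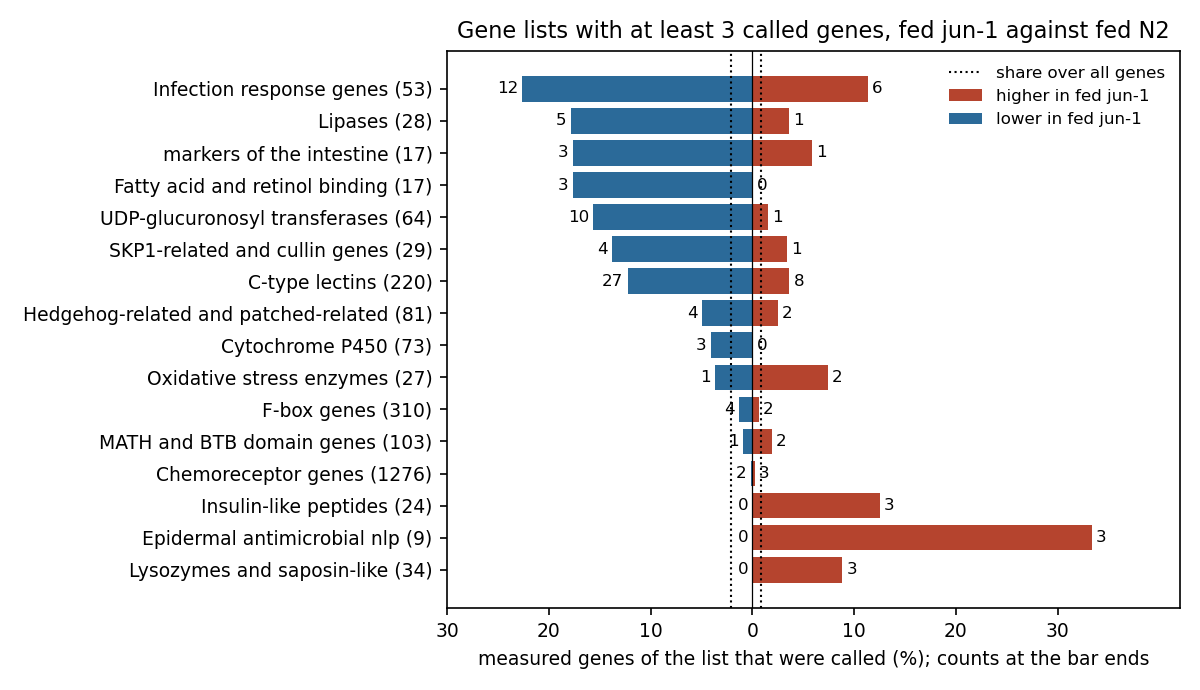
Share of the measured genes of each list that were called higher (right) or lower (left) in fed jun-1, for lists with at least 3 calls. The number measured stands in brackets, counts stand at the bar ends, and dotted lines mark the shares over all genes, 0.835% higher and 2.07% lower. Lectins, infection response genes, lipases and UDP-glucuronosyl transferases lie to the left, and insulin-like peptides, epidermal nlp genes and lysozymes to the right.

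Tissue markers were mostly level. None was called by limma among 36 germline and oocyte genes, 73 sperm genes, 16 body wall muscle genes, 14 pharynx genes and 35 neuron genes, and at an unadjusted p under 0.05 they had 3, 2, 0, 1 and 5 genes in either direction. In whole worms, fewer cells of a type and less RNA per cell cannot be told apart. Intestine markers were the exception, with 4 of 17 called (23.5%, beside 2.90% of all genes). vha-6, a proton pump subunit, the gut esterase ges-1 and the protease asp-1 were lower and the peptide transporter pept-1 higher. vha-6 read 380, 350 and 471 in fed jun-1, against 940, 1058 and 1092 in fed N2 (-1.28 ± 0.21, adjusted p = 0.000917). asp-1 read 3849, 4266 and 3870 in fed jun-1, against 7060, 8733 and 9100 in fed N2 (-1.01 ± 0.25, adjusted p = 0.0302). The summed intensity of the 17 genes ran from 18208 to 20296 in fed jun-1 and from 22687 to 23256 in fed N2. Its part in the lower lectin, lipase and transferase genes was not tested. The list's median was -0.06, and none of the 4 calls held without the replicate block. Of 15 hypodermis markers wrt-10 was higher (6.67% called), and of 11 spermatheca and sheath markers inx-8 was lower (9.09% called), 1 call in each short list. With 1 array left out, the call was lost in 3 of 6 fits for wrt-10 and 5 for inx-8. Neither was called without the replicate block, and the wrt-10 arrays overlapped between the groups.

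Sperm genes showed how much a pair of arrays shares. The summed intensity of the 73 was 9689, 55117 and 22864 in fed jun-1 replicates 1, 2 and 3, against 9804, 42582 and 16683 in fed N2. It differed severalfold between replicate numbers in both strains and far less within a pair.

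The fasted arrays of jun-1 and N2 are not contrasted in the fed difference, and they show whether it was there in other worms of the same strains. They did enter the scaling, the spread and the replicate block behind the 638 calls, so the choice was not independent of them. The 6 fed arrays alone called 608 probe sets, and 424 of these were among the 638. In fasted jun-1 against fasted N2, 8.51% of all probe sets were called, 2.90% higher and 5.61% lower. Of the 458 lower in fed jun-1, 304 were also called lower in fasted jun-1 (66.4%), none was called higher (1 at an unadjusted p under 0.05), and 445 had a negative difference. Of the 180 higher in fed jun-1, 60 were also called higher (33.3%), 2 were called lower and 154 had a positive difference. The counts of called probe sets, 364 in both directions, were 241 without N2 replicate 1, 222 without jun-1 replicate 2, 237 without N2 replicate 2 and 213 without N2 replicate 3.

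All 15 of the lowest genes were called lower in the fasted arrays too, and 7 of the 15 highest were called higher: clec-5, srlf-34, C16D2.1, R07C12.1, metl-6, F19C7.2 and trx-3. ins-7 read 435, 596 and 905 in fasted jun-1, against 127, 90.7 and 59.1 in fasted N2 (3.02, adjusted p = 3.83e-06). fat-5 read 571, 506 and 663 in fasted jun-1, against 1591, 2947 and 2993 in fasted N2 (-1.97). So both stood apart from N2 in each feeding state, with no overlap of arrays. For fat-5 the other fed mutants were low as well: against fed N2, fed kgb-1 differed by -1.97 and fed daf-16 by -1.27.

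For a small group the fed and fasted differences themselves differed. A test of that difference called 98 of all probe sets (0.435%), 11 with a higher difference in fasted worms (0.0488%) and 87 with a lower one (0.386%). Among them were 13 of the 180 and 10 of the 458. Those probe sets were chosen by the fed difference, which this test subtracts, so a smaller difference in fasted worms is partly built in for them. clec-60 was the clearest: it was 9.82-fold higher in fed jun-1, but read 56.4, 36.2 and 59.3 in fasted jun-1, against 59.9, 67.3 and 82.5 in fasted N2. clec-86 read 51.4, 44.3 and 57.8 in fasted jun-1, against 60.9, 42.7 and 124 in fasted N2. thn-1 was high in both fasted groups, at 386, 215 and 323 in fasted jun-1, against 439, 408 and 658 in fasted N2, beside 248, 135 and 155 in fed jun-1 and 58.7, 40.4 and 45.6 in fed N2. In the N2 time course, 48 h without food changed clec-86 by -1.85, clec-60 by -0.15 and thn-1 by 2.26, of which the change in clec-60 did not pass the test (adjusted p = 0.469).

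**Figure D5:**
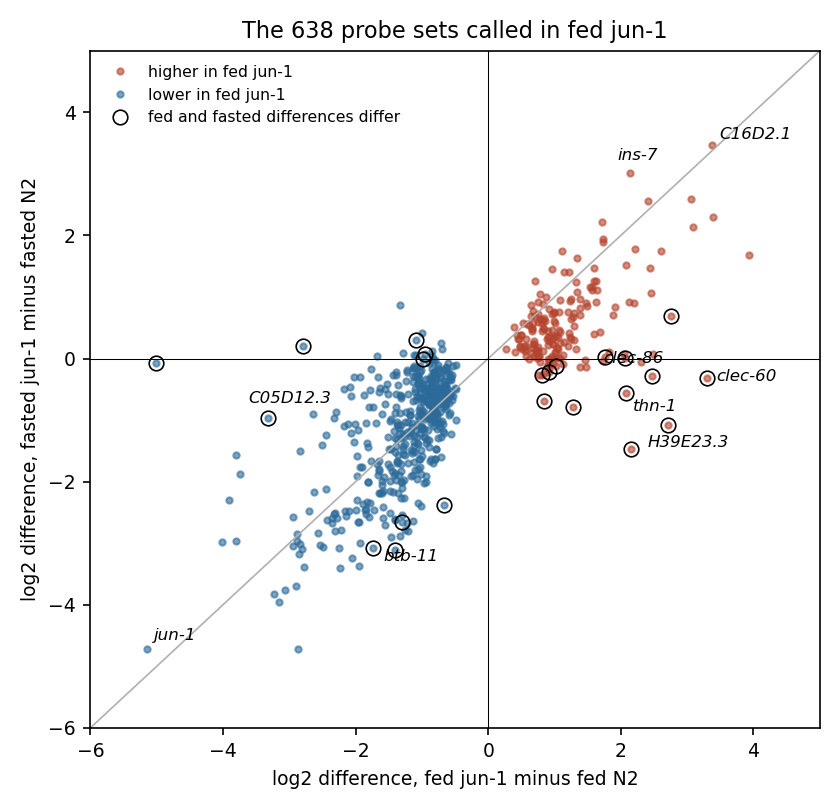
Log2 difference in fasted worms (y axis) against that in fed worms (x axis), jun-1 minus N2, for the 638 probe sets called in fed worms. The grey line marks equal differences and black rings the probe sets whose fed and fasted differences were called different. Most of the 458 lower probe sets lie below 0 in fasted worms, 445 of them, while the ringed clec-60, clec-86, thn-1 and H39E23.3 lie below 0 on the right.

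Fed jun-1 was set against the other fed mutants, kgb-1, mutant in a gene for a JNK-family kinase, and daf-16, mutant in the FOXO gene. These comparisons share the fed jun-1 arrays with the comparison against N2, so a like sign is partly built in. Against fed kgb-1, 4.09% of probe sets were called (2.10% higher, 1.99% lower), and against fed daf-16 2.05% (1.00% higher, 1.05% lower). Of the 180 higher than N2, 77 were higher than kgb-1, 89 higher than daf-16 and 56 higher than both. Of the 458 lower than N2, 128 were lower than kgb-1, 133 lower than daf-16 and 46 lower than both, while 14 were higher than kgb-1. Without jun-1 replicate 3 the 102 that stood apart from all 3 strains became 59.

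Of the 15 highest genes 10 stood above all 3 other strains, among them clec-5, srlf-34, C16D2.1, clec-60 and clec-86. clec-5, for example, read 99.3, 81.0 and 80.7 in fed kgb-1 and 461, 182 and 154 in fed daf-16. Of the 15 lowest 7 stood below all 3: jun-1, clec-222, asp-14, clec-66, F01D5.2, C05D12.3 and clec-223. clec-222 read 287, 918 and 531 in fed kgb-1 and 492, 537 and 562 in fed daf-16. For ins-7 fed kgb-1, at 442, 581 and 476, was near N2, while fed daf-16, at 1632, 1027 and 1723, lay between jun-1 and N2.

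Another 5 of the 15 lowest, clec-174, F09C6.10, C48B4.12, clec-208 and fipr-17, did not differ from either other mutant by the test. In 4 of them all 3 mutants were near the floor and N2 alone was not. C48B4.12 read 19.4, 24.4 and 32.3 in fed jun-1, 17.7, 16 and 18.9 in fed kgb-1 and 17.3, 16 and 23.2 in fed daf-16, against 152, 270 and 298 in fed N2. clec-208 read 16, 20.2 and 16 in fed jun-1, 16, 17.2 and 16 in fed kgb-1 and 23.6, 22.1 and 21.9 in fed daf-16, against 98.9, 185 and 182 in fed N2. The N2 arrays of the other set were high as well, at 138 and 288 for C48B4.12 and 68.8 and 204 for clec-208 in fed worms at 48 h. So for these genes N2 stood apart from 3 mutants of different genes. metl-6 showed the opposite order, at 368, 419 and 343 in fed jun-1, 459, 418 and 346 in fed kgb-1 and 353, 306 and 268 in fed daf-16, against 63.8, 49.7 and 40.4 in fed N2.

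Genes that answer fasting in N2 were taken from the time course, whose 22 arrays are apart from the mutant set: probe sets that changed at least 2-fold between N2 fasted and fed for 48 h. There were 1310 that rose (5.81%) and 905 that fell (4.01%). In fed jun-1 the 905 that fall with fasting had 106 members lower (11.7%) and 17 higher (1.88%), with a median of -0.16, beside 2.03% and 0.798% of all probe sets. The 1310 that rise had 51 higher (3.89%) and 42 lower (3.21%), with a median of 0.04. Together 216 were called, and 128 without jun-1 replicate 2, 139 without N2 replicate 2 and 115 without N2 replicate 3. For probe sets that fell at least 4-fold, 39 of 155 were lower in fed jun-1 (25.2%) and 4 higher (2.58%), with a median of -0.67. For those that rose at least 4-fold, 12 of 102 were higher (11.8%) and 4 lower (3.92%), with a median of 0.20. F01D5.2 and asp-14 show the pattern, with changes on fasting of -4.68 and -3.35 in N2. clec-222 (-0.70) moved the same way by less, while lipl-1 rose with fasting (1.03) and was lower in fed jun-1.

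Some called genes lay side by side. In the RefSeq order of protein-coding genes, 60 of the genes lower in fed jun-1 stood in 27 runs of neighbours that were all lower, and 4 of the higher genes in 2 runs. Read with 1 probe set per gene, 16% of the lower genes had a lower gene next to them, beside 3.54% of all measured genes, and 2.88% of the higher genes had a higher one, beside 1.34%. The longest run was F01D5.1, F01D5.2, F01D5.3 and F01D5.5 on chromosome II, lower by -2.49, -3.75, -2.32 and -1.97. Other runs were clec-222 and clec-223 and pud-3 and pud-4 on chromosome V, clec-136 and clec-137 and clec-65 and clec-66 on chromosome II, and ugt-43 and ugt-44, K08D8.4 and K08D8.5 and skr-13, skr-9 and skr-8 on chromosome IV. ilys-3 and ilys-2, and R07C12.1 and K08D10.14, both on chromosome IV, were the 2 runs of higher genes. Many of these are gene families in tandem, whose probe sets may read more than 1 copy, so their values are not independent.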

How the data were processed

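Each sample was 1 Affymetrix array. Trizol RNA, 100 ng a sample, was turned into biotin-labelled cRNA in the 2-cycle assay, per the labels' protocols, and the design text gives 3 independent experiments for the mutants. The deposited values are linear intensity values that the authors made with PLIER, per the submitters' processing notes. The version, the normalization and any background step are not given in the sources used here. The lowest deposited value was 16, and 77 control probe sets were left out.

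Probe sets were named from GEO's platform annotation with RefSeq symbols (WBcel235, used for names and gene order): 20766 of 22548 had 1 symbol, 887 several and 895 were not listed, and 20701 were found in the RefSeq table. Log2 intensity values, with no offset, were quantile scaled over 24 arrays and fitted with limma 3.58.1 (R 4.3.3; intensity trend), with 8 group coefficients and the replicate number as a block, which left 14 residual degrees of freedom. Tests were two-sided. The p-values rest on the spread left after the block took out differences shared by a replicate number, pooled over the 8 groups. The block was used because the comparison is defined in pairs. Deviations of same-numbered fed jun-1 and fed N2 arrays from their group means correlated at 0.606, 0.141 and 0.307, though jun-1 replicate 3 was nearer to N2 replicate 2 (0.449). Over the whole mutant set, for 24 of 24 arrays the closest other array carried the same number. Arrays correlated at 0.951 or more within fed jun-1, 0.969 within fed N2 and 0.946 between them. With 3 arrays in each group, precision is limited by their number. The time course was fitted separately in the same way.

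Named genes are jun-1, fos-1, the 15 highest and 15 lowest called genes with 1 sign in all pairs, up to 3 called genes per direction in each of 36 gene lists and 8 tissue marker lists, and members of lists of 12 genes or fewer. Other genes of a run of neighbours, and skr-13, were chosen after their values were seen. The members and lists were chosen with earlier results of these data known. The fit was tested on simulated data. Alternatives were no block, no scaling, median centring, offsets of 16 and 50, the brighter probe sets, the 6 arrays alone, no trend, array weights, each array left out and a stricter time course set. Sequences are not given.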

Additional observations from a re-analysis of the deposited data

Results flagged for a closer look

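For 8 named genes the difference between jun-1 and N2 was not the same in fasted as in fed worms, by a test of that difference (limma, fasted minus fed, adjusted over all probe sets). It was -3.62 for clec-60 (adjusted p = 0.000555), -3.79 for H39E23.3 (adjusted p = 0.00539), -2.76 for clec-86 (adjusted p = 0.00173), -2.63 for thn-1 (adjusted p = 0.0217), -2.06 for K08D10.14 (adjusted p = 0.0114) and -1.14 for thn-3 (adjusted p = 0.0092). Each of these 6 was higher in fed jun-1, and in fasted worms their differences ran from -1.08 to 0.69, none of them called. For C05D12.3 it was 2.35 (adjusted p = 0.00539), with -0.97 in fasted and -3.32 in fed worms. For btb-11 it was -1.35 (adjusted p = 0.0316), with -3.08 in fasted and -1.73 in fed worms, so this gene was lower in jun-1 in both states and more so in fasted worms. All 8 genes were named through their fed difference, which the test subtracts, so a smaller difference in fasted worms is partly built in.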

How the results depend on the processing

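Intensities near the floor of 16 and 3 arrays per group limit these results. The first jun-1 probe set was called under every alternative run, at -5.32 to -4.97 with 1 array left out. Of 99 called named probe sets, 55 were called in each of the 6 fits with 1 array left out, among them 28 of the 30 most changed, and 56 without the replicate block. None reversed. Without the replicate block the fed comparison called 290 probe sets and 64 list genes, with 114 of the fasting-responsive probe sets, 157 also called in fasted arrays and 52 apart from both other mutants. The main values were 638, 132, 216, 364 and 102. With the brighter part of the probe sets 398 and 77 list genes were called, where fewer were tested, and with array weights 1005 and 201. On the values as deposited 594 were also called in fasted arrays. Time course sets of at least 4-fold gave 59. Leaving out 1 array gave 319 to 647 probe sets, 77 to 127 list genes, 115 to 204 fasting-responsive, 213 to 311 in fasted arrays and 59 to 114 apart from both mutants. The 6 arrays alone give no value for the fasted and other mutant comparisons. The cause of these changes was not tested.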
